A study of Rattus norvegicus with 3 samples.

Results

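The genes Pi16, Dpp4, Smpd3, Penk and Postn, 5 genes of fibroblast zones in the rat thymus, were followed across the cell labels of 1 stromal library. The 5 were named as a set, not picked by a threshold, and all 5 of 5 were found among the 34034 genes of the count table. The library came from 8-week-old Lewis rats, an inbred strain with no genetic change or treatment stated. The tissue was dissociated by Liberase TH with DNase I, enriched on an autoMACS for stroma that lacks CD45, the surface protein of blood-derived cells, and then sorted by flow cytometry. The labels give neither the sex nor how many animals went into it. A thymocyte library from rats of the same strain and age is used here for values set beside those of the stroma, and the spatial section of the series was not analysed here. With 1 sample in each group there were no replicates, so values are compared without a test. The intervals, at 95%, cover counting error alone, exact Poisson for levels, exact Clopper-Pearson for shares of cells and log-normal for ratios of levels.

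The thymus is wrapped in a connective tissue capsule that dips inward as septa, and its fibroblasts differ between this outer layer, the cortex and the medulla. Pi16, peptidase inhibitor 16, is a member of the CAP superfamily of cysteine-rich secretory proteins and marks adventitial fibroblasts around vessels and organ surfaces in many tissues. Dpp4 (CD26) is a membrane peptidase that clips dipeptides from the N-terminus of chemokines and hormones, is known from fascial and capsular fibroblasts, and is also a surface protein of T cells. Smpd3 encodes neutral sphingomyelinase, which splits sphingomyelin into ceramide and phosphocholine. Penk encodes proenkephalin, the precursor that proprotein convertases and carboxypeptidases cut into the enkephalin opioid peptides. Postn encodes periostin, a matrix protein that binds collagens, fibronectin and integrins.

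Promoters of 3 of the 5 genes were at hand in RefSeq's GRCr8 tables, and they are shown because Pi16, Dpp4 and Postn were all highest in the same fibroblast label. Each runs 5′ to 3′ from 250 bases before the annotated start to 50 bases from it on. Capitals mark matches, on either strand, to TATAAA (the TATA box), CCAAT (the CCAAT box), GGGCGG (the GC box), TGANTCA (the AP-1 site) or GGAATG (the TEAD site).
Pi16, chr20:7377703-7378002, plus strand: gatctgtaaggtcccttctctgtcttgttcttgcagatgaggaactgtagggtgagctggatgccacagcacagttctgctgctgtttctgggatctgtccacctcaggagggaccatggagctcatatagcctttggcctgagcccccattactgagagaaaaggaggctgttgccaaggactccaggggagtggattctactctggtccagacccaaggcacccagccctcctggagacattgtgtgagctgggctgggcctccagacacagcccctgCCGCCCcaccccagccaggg
Dpp4, chr3:67452373-67452672, minus strand: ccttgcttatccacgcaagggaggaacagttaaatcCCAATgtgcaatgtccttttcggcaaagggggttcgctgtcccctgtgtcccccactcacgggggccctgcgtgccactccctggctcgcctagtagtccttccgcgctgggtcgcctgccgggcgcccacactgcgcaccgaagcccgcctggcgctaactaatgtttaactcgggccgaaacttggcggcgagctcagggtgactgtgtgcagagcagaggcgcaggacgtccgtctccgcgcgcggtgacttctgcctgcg
Postn, chr2:140677811-140678110, plus strand: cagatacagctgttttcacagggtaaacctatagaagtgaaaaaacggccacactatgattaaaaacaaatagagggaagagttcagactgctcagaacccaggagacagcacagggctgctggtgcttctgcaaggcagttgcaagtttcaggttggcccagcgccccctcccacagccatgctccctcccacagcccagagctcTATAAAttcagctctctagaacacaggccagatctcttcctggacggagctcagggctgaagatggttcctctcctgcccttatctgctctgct

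The 3 windows had 1 match each and shared none. The Pi16 window held the GC box on the reverse strand, downstream of the start, and 33.1% of all 33469 promoters of that length held one. The Dpp4 window held a CCAAT box, as did 37.5% of promoters, and was the richest of the 3 in CG dinucleotides, with 27 against 1 in Pi16 and 3 in Postn. The Postn window held TATAAA ending 39 bases before the start, found in 14.2% of promoters. No letters of TGANTCA (7.33% of promoters) or GGAATG (14.2%) were in these windows. A match is a description of letters, not of a bound site.

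The stromal table held 16160 barcodes, of which 13226 carried an annotation with a median of 9087.5 UMIs (unique molecular identifiers, each counting 1 captured RNA molecule) and 131624350 UMIs in all. The labels capFb (1358 cells), TMC1 (1377), TMC2 (3080), TMC3 (1152) and TMC4 (1249), which the files do not spell out, hold 8216 of them and are called the fibroblast labels here. All 5 carried the fibroblast markers Pdgfra, Col1a1, Col1a2, Dcn and Lum, as did the 7 other labels checked. The summed level of these markers was 37403 CPM (counts per 1000000, scaled to the UMIs of the label) in capFb, 33902 in TMC1, 30553 in TMC2, 14526 in TMC3 and 4489 in TMC4. By this sum TMC4 does not stand apart from other labels, since vSMC/PC had 5097 CPM, B cell 5386, EC:aEC 6376, MEC 8401, nmSC 14718 and TEC:aaTEC2 23868. Mural markers ran the other way, from 8.29 CPM in capFb to 217 in TMC3 and 456 in TMC4, against 3809 in vSMC/PC. Of the barcodes, 38 also occurred in the thymocyte library, 16 of them annotated in both and lying in the fibroblast labels.

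Pi16 was by far highest in capFb. Its level was 4894 CPM (4860 to 4929) in capFb, 371 in TMC1, 217 in TMC3, 39.2 in TMC2 and 18.5 in TMC4. The step from capFb to TMC1 was 13.2-fold (12.8 to 13.6), and the 5 intervals did not overlap. Nearly every capFb cell, 99.6%, had a Pi16 UMI, with a median of 44 and a highest count of 334 per cell, and capFb held 82.3% of all Pi16 UMIs of the annotated stroma.

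TMC1 was mixed for Pi16. A Pi16 UMI was found in 59.3% of TMC1 cells, but the 160 cells with 10 or more (11.6%) held 61.3% of the label's Pi16 UMIs. TMC3 was more uneven still, with 87.7% of its Pi16 UMIs in 32 of 1152 cells. Those 32 cells had a median depth of 20429.5 UMIs against 7995 in the rest of TMC3, 96.9% of them had Dpp4 and 93.8% had Smpd3. Without them TMC3 stood at 28.5 CPM of Pi16, 13.0 of Dpp4 and 13.4 of Smpd3, so the place of TMC3 above TMC2 for Pi16 rested on them.

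Smpd3 was also highest in capFb. Its level was 892 CPM (878 to 907) in capFb, 119 in TMC1, 42.3 in TMC3, 10.6 in TMC2 and 3.29 in TMC4, and the intervals did not overlap. The step from capFb to TMC1 was 7.50-fold (7.13 to 7.89). The sphingomyelinase transcript was found in 96.3% of capFb cells, with a median of 8 UMIs, and in 34.4% of TMC1 cells.

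Dpp4, the membrane peptidase, had a smaller step than Pi16 and Smpd3. Its level was 820 CPM (806 to 834) in capFb, 154 in TMC1, 46.7 in TMC2, 37.4 in TMC3 and 3.63 in TMC4. The step from capFb to TMC1 was 5.33-fold (5.10 to 5.58). It was higher in TMC2 than in TMC3, and in TMC2 it was found in 15.7% of cells.

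Postn, the matrix gene of the set, was the broadest. Its level was 1618 CPM (1598 to 1637) in capFb, 793 in TMC1, 699 in TMC4, 396 in TMC3 and 273 in TMC2. The step from capFb to TMC1 was 2.04-fold (1.99 to 2.09), and the intervals did not overlap. TMC4, at the bottom for Pi16, Dpp4 and Smpd3, came next to capFb for Postn by share of cells, with 81.7% against 91.1% in capFb and 66.5% in TMC1.

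Penk was the gene of the set that was lower in capFb than in most TMC labels. Its level was 97.8 CPM (91.9 to 104) in TMC3, 91.8 (88.2 to 95.5) in TMC2, 75.2 (70.7 to 79.8) in TMC1, 27.3 (24.9 to 30.0) in capFb and 26.3 (23.4 to 29.4) in TMC4. TMC3 and TMC2 did not differ beyond counting error, with a ratio of 1.07 (0.991 to 1.15), and neither did capFb and TMC4. In cells with no UMI of epithelial, endothelial, mural, lymphoid or myeloid markers the ratio of TMC3 to TMC2 was 1.78, so the tie between them depends on the cells kept. TMC2, the largest label, held 41.8% of Penk UMIs. Penk was sparse, with a median of 1 UMI in the cells that had any, although 1 TMC1 cell had 73.

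**Figure D1:**
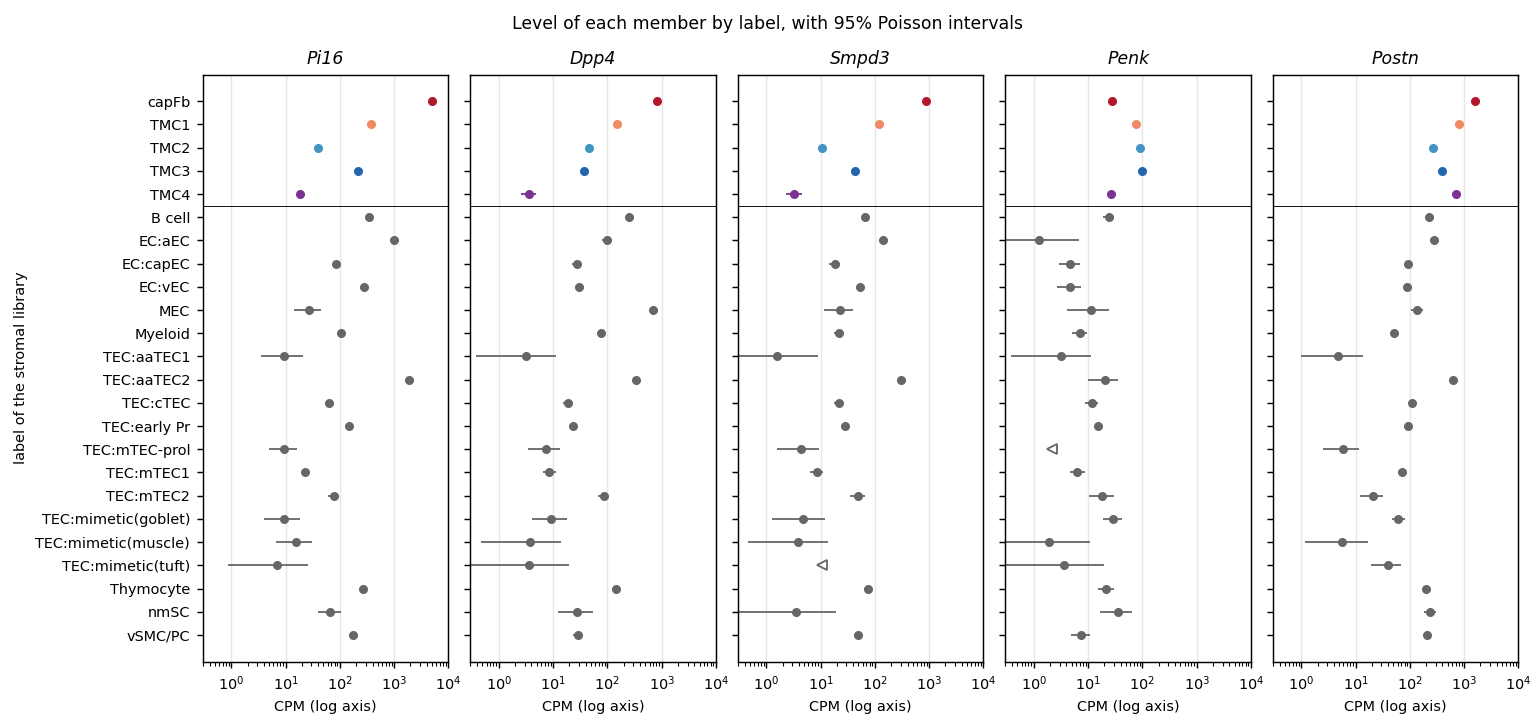
Level of the 5 genes in the 24 labels of at least 20 cells, as CPM on a log axis, with 95% Poisson intervals; open triangles stand at the level of 3 UMIs for labels with none. Pi16, Dpp4, Smpd3 and Postn are highest in capFb (4894, 820, 892 and 1618 CPM), and Penk in TMC3, TMC2 and TMC1 (97.8, 91.8 and 75.2 CPM).

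Of the 5 genes 4, Pi16, Dpp4, Smpd3 and Postn, were at least 2-fold higher in capFb than in the next fibroblast label, a pattern of 2.97% of the 13530 genes with at least 100 UMIs in these labels (7.43% with any of the 5 labels on top). Postn lay just past that fold, at 2.04, and in cells with no UMI of other-lineage markers it was at 1.91, which leaves 3 of 5. Against TMC1 to TMC4 pooled, where 5.58% of the genes were at least 2-fold higher in capFb and 15.7% at least 2-fold lower, the ratio was 35.1 for Pi16, 23.0 for Smpd3, 13.4 for Dpp4 and 3.31 for Postn. Penk was 2.82-fold lower in capFb (2.56 to 3.11). Only 29 of the 13530 genes had a higher ratio than Pi16. The set was proposed with results of these data known, so these counts describe it and support nothing about it.

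Shares of cells depend on depth, and free RNA gives UMIs in cells that do not make a gene. Pi16 was found in 15.6% of mTEC1 cells (median 11915.5 UMIs), epithelial cells that should lack it, against 12.3% in TMC4 (8717), 19.7% in TMC3 (8143) and 22.8% in TMC2 (8269.5). When each cell was thinned to 4000 UMIs, Pi16 was found in 98.9% of capFb, 46.7% of TMC1, 13.0% of TMC2, 10.8% of TMC3, 4.99% of TMC4 and 6.59% of mTEC1 cells. The Pi16 share of TMC4 is therefore read as background, and so are the Smpd3 shares of TMC2 and TMC4, 2.51% and 0.861% against 3.18% in mTEC1. Pi16 was also found in 19.6% of stromal Thymocyte cells and 13.2% of B cell cells, and Smpd3 in 12.1% and 10.2%. The Pi16 shares of TMC2 and TMC3 and the Smpd3 share of TMC3 (4.79%) are therefore not shown to be above background. Dpp4 at that depth was found in 88.9% of capFb, 26.7% of TMC1, 10.2% of TMC2, 4.99% of TMC3 and 1.12% of TMC4 cells, against 1.59% in mTEC1, so its share in TMC4 is also background. Penk stood above its mTEC1 share of 1.82% in all 5 fibroblast labels, from 7.53% in capFb to 26.1% in TMC2. But Penk was also found in 11.2% of 107 stromal Thymocyte cells and 5.99% of B cell cells, against 7.92% in TMC4. Its shares in capFb and TMC4 are therefore not shown to be above background. Postn stood above its mTEC1 share of 13.2% in all 5 fibroblast labels, from 34.3% in TMC2 to 85.3% in capFb. But it was also found in 27.1% (19.0 to 36.6) of the stromal Thymocyte cells and 21.0% of B cell cells. The Postn share of TMC2 is therefore not shown to be above background. Thinning left out 30 capFb, 42 TMC1, 94 TMC2, 109 TMC3, 87 TMC4 and 42 mTEC1 cells that were shallower.

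**Figure D2:**
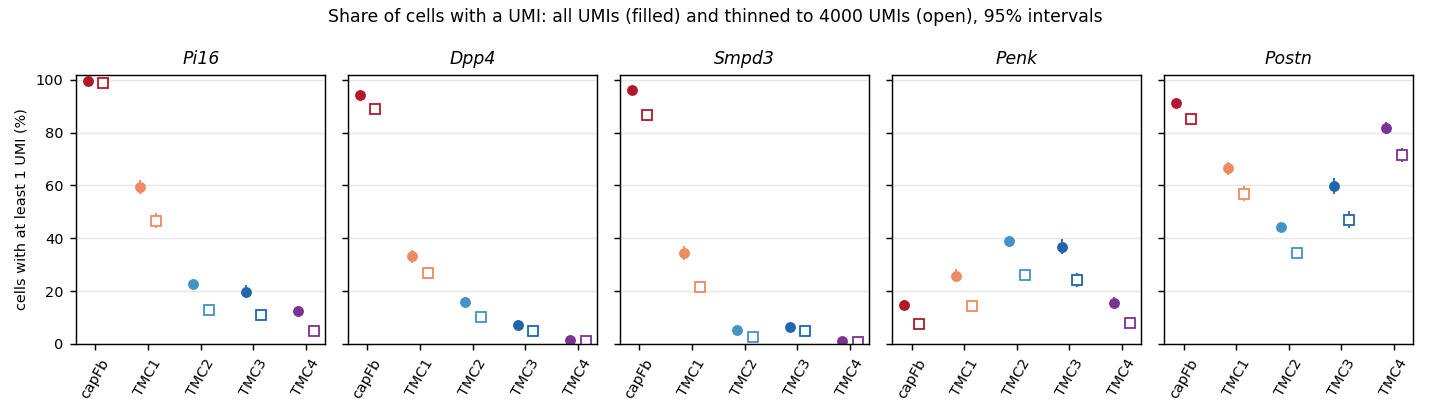
Share of cells with at least 1 UMI (%) of each gene in the 5 fibroblast labels, with all UMIs (filled circles) and with each cell thinned to 4000 UMIs (open squares), with 95% intervals. For each of the 5 genes the labels keep their order at the lower depth while the shares shrink, as for Pi16 in TMC1 from 59.3% to 46.7%.

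Outside the fibroblasts Dpp4 was high in cells that lacked Pi16. MEC, a label of 48 cells, had 706 CPM (636 to 782) of Dpp4, with a UMI in 93.8% of cells. This label carried the mesothelial markers Msln (3513 CPM), Upk3b (987) and Lrrn4 (588), and in it Pi16 was at 26.6 CPM and Smpd3 at 22.8. Of the 40 MEC cells with no Pi16 UMI, 92.5% had Dpp4. Among cells without Pi16 the share with Dpp4 was 52.9% of 136 B cell, 32.1% of 330 Thymocyte and 29.3% of 417 Myeloid cells, against 2.70% of 407 mTEC1 and 1.25% of 401 vSMC/PC cells.

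In several labels outside the fibroblasts most Pi16 UMIs lay in cells with 10 or more. TEC:aaTEC2 (29 cells) stood at 1909 CPM of Pi16 and EC:aEC (90 cells) at 985, yet 98.8% and 93.2% of these UMIs lay in 13 and 11 such cells. The 13 make up 44.8% of TEC:aaTEC2, and their summed fibroblast markers stood at 29586 CPM against 17467 in the other cells of the label. In mTEC1, by contrast, 1 cell of this kind held 7.33% of the Pi16 UMIs. In TEC:early Pr, 25 of 1018 cells held 90.9%, and their summed fibroblast markers stood at 23065 CPM against 2205 in the rest of the label. Their median depth was 20353 UMIs against 10871, and all 25 had both Dpp4 and Smpd3. The B cell label showed the same, with fibroblast markers at 25139 CPM in its 13 cells with 10 or more Pi16 UMIs and 3333 in the others. Whether such barcodes hold more than 1 cell was not tested. Without these cells Pi16 stood at 88.5 CPM in EC:aEC and 46.6 in TEC:aaTEC2.

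The thymocyte library held Dpp4 and, at a lower level, Pi16. Dpp4 stood at 122 CPM over its 8546 annotated cells, with a UMI in 46.1%. Among its labels Dpp4 ran from 33.1 CPM in Mature cycling T to 359 CPM in gdT, where 92.2% of 128 cells had it at a median depth of 19803.5 UMIs, and it was 180 CPM in the 5202 DP cells. Penk had 1 UMI in the whole library, Smpd3 56 UMIs (0.869 CPM) and Postn 104 UMIs in 5 cells. Pi16 stood at 19.3 CPM, in 11.6% of cells, and was highest in gdT (48.1 CPM, 46.9% of cells) and DP (36.6 CPM). The 2 libraries were digested and handled differently, so these values are set side by side without a comparison.

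Within capFb the capsular genes came together. The most frequent combination was Pi16, Dpp4, Smpd3 and Postn without Penk, in 71.2% of capFb cells (68.7 to 73.6), followed by all 5 genes in 11.6%. Pi16, Dpp4 and Smpd3 were found together in 91.2% of capFb, 12.9% of TMC1, 3.21% of TMC3, 0.455% of TMC2 and 0.160% of TMC4 cells. In TMC1 no combination passed 11.1%, the share of Pi16, Dpp4 and Postn without the other genes, and 7.26% of cells had none of the 5.

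Whether 2 genes shared cells was measured as the number of cells with both over the number expected if they were independent within each label and each of 10 equal classes of its cells by depth. A ratio over 1 means that they meet more often and a ratio under 1 that they avoid each other. All 10 pairs were computed. In capFb each ratio lay between 0.903 and 1.03, with intervals that include 1. Pairs with Pi16, Dpp4 or Smpd3 must nearly do so, since almost every cell has these genes. Penk with Postn was lowest, at 0.903 (0.769 to 1.05). Penk was found in 29.8% (21.8 to 38.7) of 121 capFb cells without Postn and 13.2% (11.3 to 15.2) of 1237 with it. Their median depths were 11527 and 11374 UMIs. Postn stood at 816 CPM in capFb cells with Penk and 1794 in those without, at median depths of 14070 and 11018 UMIs.

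Pi16 and Dpp4 met more often than expected in TMC1, TMC2 and TMC3. The ratio was 1.38 (1.25 to 1.53) in TMC1, with 377 cells against 272 expected, 1.44 (1.24 to 1.67) in TMC2 and 1.68 (1.28 to 2.17) in TMC3. Pi16 with Smpd3 gave 1.20 (1.08 to 1.33) in TMC1 and 1.88 (1.41 to 2.47) in TMC3, and Dpp4 with Smpd3 gave 1.19 (1.03 to 1.37) and 2.03 (1.43 to 2.79). In TMC3 nearly all of the 32 deep cells described above were among these pairs. Dpp4 also met Postn more often, at 1.18 (1.06 to 1.31) in TMC1 and 1.28 (1.14 to 1.43) in TMC2. The shares of Pi16 and Postn in TMC2, and of Pi16 and Smpd3 in TMC3, are not shown to be above background. This limits the ratios that rest on them.

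Dpp4 and Penk avoided each other in TMC1 and TMC2. In TMC1, 59 cells had both against 122 expected, a ratio of 0.484 (0.368 to 0.624), and in TMC2, 110 cells had both against 195, a ratio of 0.564 (0.464 to 0.680). In capFb the ratio was 1.03 (0.887 to 1.18), and in TMC3 it was 1.04 (0.722 to 1.44). By level, however, Penk in TMC3 stood at 52.7 CPM in the 84 cells with Dpp4 and 105 in the 1068 without. Median depths of these TMC3 cells were 17429.5 and 7896.5 UMIs, and the part of depth in the ratio was not tested. TMC4 had 1 cell with both against 3.17 expected, too few for a statement. Over the 5 labels the ratio was 0.735 (0.665 to 0.811), and over TMC1 to TMC4 without capFb it was 0.579. Ratios of at most 0.8 with Dpp4 were found for 8.00% of 12261 genes in TMC1 and 8.31% of 11944 in TMC2, and with Penk for 6.74% and 1.55%. Among the partners of Dpp4, 98 genes in TMC1 and 146 in TMC2 had a lower ratio than Penk. Among the partners of Penk, 61 in TMC1 and 12 in TMC2 had a lower ratio than Dpp4.

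Pi16 and Penk showed a weaker form of this. Their ratio was 0.744 (0.632 to 0.869) in TMC1 and 0.879 (0.773 to 0.996) in TMC2, against 1.00 in both capFb and TMC3. By level, Penk in TMC3 stood at 66.4 CPM in cells with Pi16 and 109 in those without, at median depths of 10860 and 7743 UMIs. The Pi16 shares of TMC2 and TMC3 are not shown to be above background. Smpd3 with Penk gave 0.815 (0.668 to 0.986) in TMC1. Penk with Postn gave 0.987 in TMC1 and 0.907 (0.828 to 0.991) in TMC2. Pairs with Smpd3 in TMC2, where its share is at background, are not read.

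**Figure D3:**
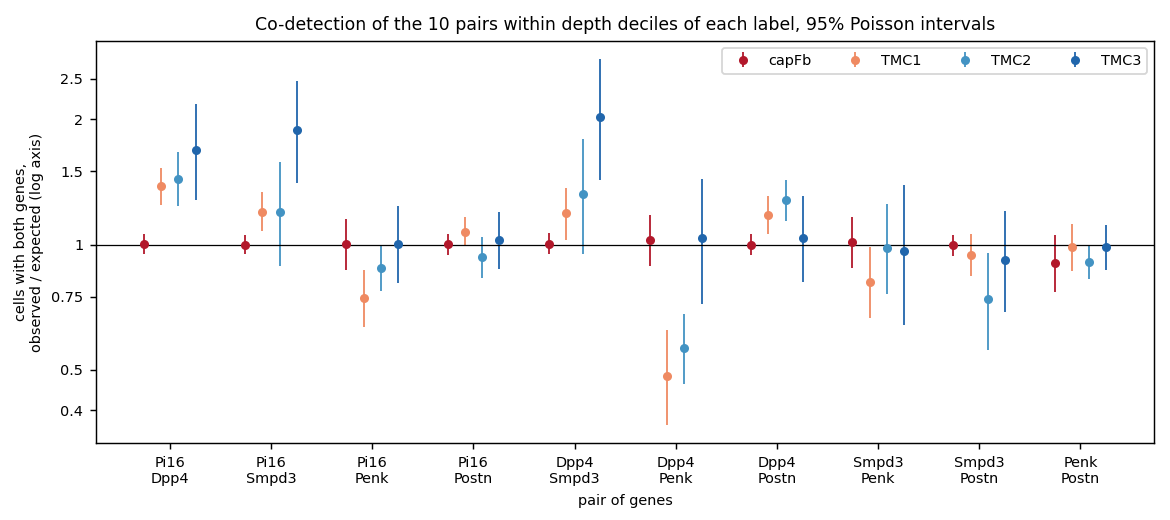
Cells with both genes, observed over expected within 10 classes of depth (log axis), for the 10 pairs in capFb, TMC1, TMC2 and TMC3, with 95% Poisson intervals; the line marks 1. Dpp4 with Penk lies lowest, at 0.484 in TMC1 and 0.564 in TMC2, while capFb lies between 0.903 (Penk with Postn) and 1.03.

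The avoidance was graded with the UMIs of each gene. In TMC1 a Penk UMI was found in 32.2% of the 921 cells without Dpp4, 18.3% of the 120 with 1 Dpp4 UMI, 18.2% of the 66 with 2 and 9.26% (6.08 to 13.4) of the 270 with 3 or more. The Penk level was lower along the same classes, from 103 CPM to 45.0, 24.2 and 11.6. These cells were not shallower, since their median depths were 9469, 9764, 10038 and 10582 UMIs. Read the other way, Dpp4 was found in 38.9% of TMC1 cells without Penk and in 24.2%, 9.23% and 7.62% of those with 1, 2 and 3 or more Penk UMIs.

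In TMC2 the Penk share dropped at the first Dpp4 UMI and then stayed level. Penk was found in 41.8% of the 2595 TMC2 cells without Dpp4 and in 23.8%, 21.3% and 21.7% of those with 1, 2 and 3 or more Dpp4 UMIs. Dpp4 was found in 19.9%, 12.0%, 6.72% and 5.41% of TMC2 cells with 0, 1, 2 and 3 or more Penk UMIs. In capFb the share with Dpp4 was near its ceiling, at 93.5% of cells without Penk and 100% of the 51 cells with 3 or more Penk UMIs, so no direction is read there. The Dpp4 level of capFb cells with 0, 1, 2 and 3 or more Penk UMIs was 822, 795, 756 and 883 CPM, at median depths of 11018, 13542, 13567 and 15503 UMIs.

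**Figure D4:**
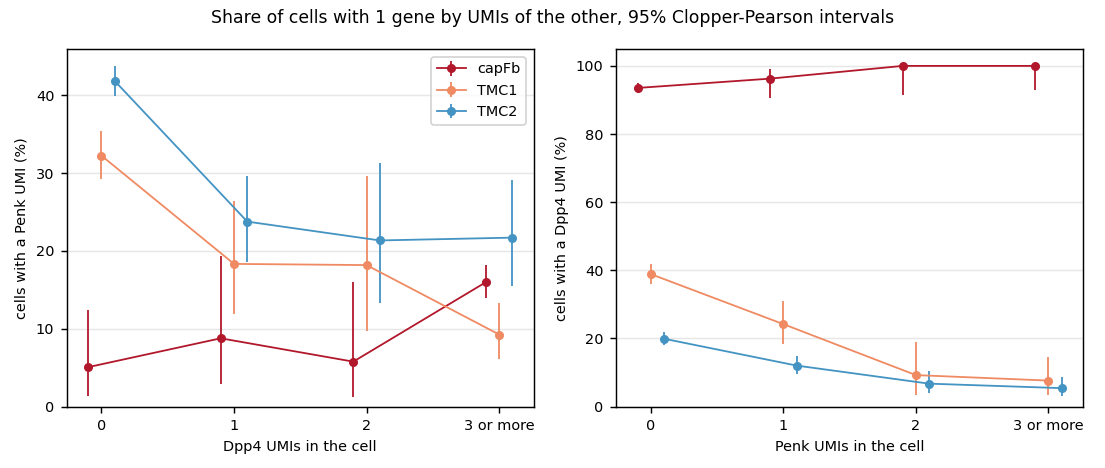
Left, share of cells with a Penk UMI (%) by the Dpp4 UMIs of the cell; right, share with a Dpp4 UMI by the Penk UMIs; capFb, TMC1 and TMC2, with 95% Clopper-Pearson intervals. In TMC1 the Penk share goes from 32.2% to 9.26%, and in capFb the Dpp4 share stays between 93.5% and 100%.

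Splitting TMC1 and TMC2 by detection of Dpp4 and Penk, a split chosen after the pair's value was seen, showed what else differed. In TMC1, Pi16 stood at 787 CPM (760 to 814) in the 397 cells with Dpp4 alone, 558 in the 59 with both, 210 in the 624 with neither and 98.9 (88.5 to 110) in the 297 with Penk alone. Smpd3 differed far less, at 136 CPM (125 to 148) with Dpp4 alone and 104 (93.3 to 116) with Penk alone. Postn stood at 966 and 709 CPM. In TMC2, Pi16 stood at 78.9 CPM with Dpp4 alone and 26.8 with Penk alone, and Postn at 448 and 218. So the cells of these labels that had Dpp4 also had more Pi16 and Postn than those with Penk. Median depths in TMC1 were 9977 UMIs for Dpp4 alone and 10575 for Penk alone, and in TMC2 9456 and 8352.

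Pi16 was also higher in cells with more Dpp4. In TMC1 its level was 170 CPM in cells without Dpp4 and 332, 599 and 964 in those with 1, 2 and 3 or more Dpp4 UMIs. In capFb it was 1579 CPM in the 79 cells without Dpp4 and 5225 in the 1170 with 3 or more. Depth moved with it in capFb, where the median was 9178 UMIs without Dpp4 and 11837.5 with 3 or more, and its part in the difference was not tested.

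Each gene was set against every gene found in at least 2% of fibroblasts, 12396 in all, within label and depth. Partners of Dpp4 with a ratio of at least 1.25 were 0.613% of genes and those of at most 0.8 were 1.73%. The highest were Slco1a4, an organic anion transporter (2.06), Inhba, which encodes an activin subunit (1.90), and Hmcn1, the matrix protein hemicentin (1.84). The lowest were Prlr, the prolactin receptor (0.255, with 17 cells against 66.7 expected), Pde1c, a cyclic nucleotide phosphodiesterase (0.407), and Cntfr, the ciliary neurotrophic factor receptor (0.432).

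For Penk, 0.573% of genes had a ratio of at least 1.25 and 1.37% one of at most 0.8. The highest were Crp, C-reactive protein (1.63), Dio2, the deiodinase that activates thyroid hormone (1.62), and Prlr (1.55), and the lowest Clec1a, a C-type lectin (0.518), Sidt1 (0.532) and Ablim3 (0.543). Sidt1 and Dio2 were highest in TMC4 (16.5 and 14.7 CPM), where the Penk share is not shown to be above background. Sidt1 had no UMI in TMC1 and stood at 0.150 CPM in TMC2, and its ratio rests on 21 cells against 39.5 expected. Prlr therefore stood at opposite ends for Dpp4 and Penk. In TMC1 it was at 65.6 CPM (57.2 to 74.9) in cells with Penk alone and 0.977 (4 UMIs) in those with Dpp4 alone. In TMC2 it had no UMI in the 375 cells with Dpp4 alone, where 3 UMIs would make 0.822 CPM, and 3.26 CPM in those with Penk alone. Slco1a4 was the reverse, at 131 against 8.69 CPM in TMC1 and 214 against 27.9 in TMC2. Both genes were picked by how often they met Dpp4 or Penk in these same cells, so their levels in the split restate that choice.

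**Figure D5:**
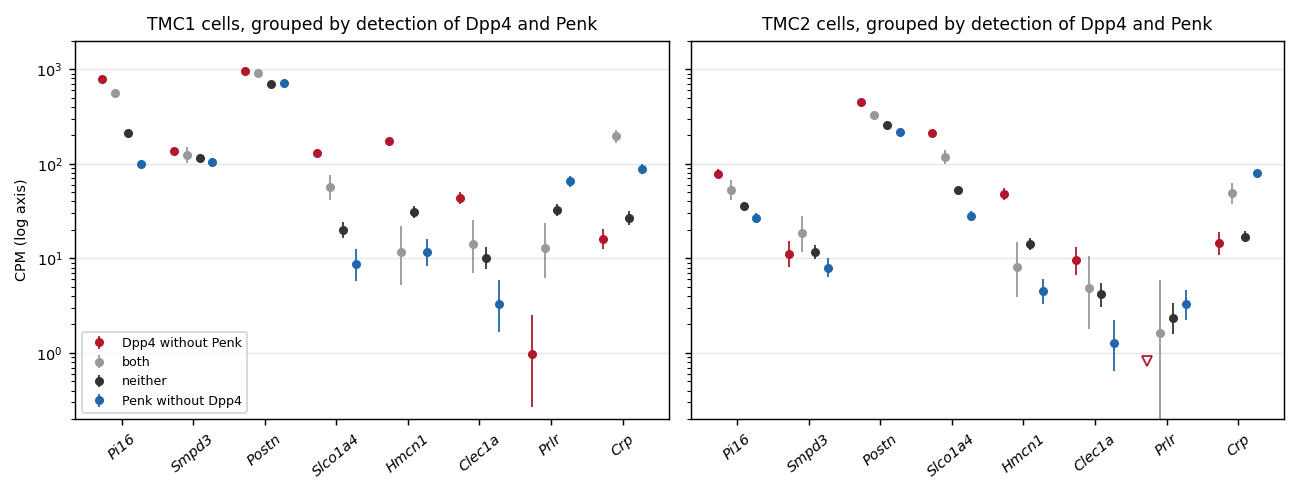
Level of 8 genes (CPM, log axis) in TMC1 and TMC2 cells grouped by detection of Dpp4 and Penk, with 95% Poisson intervals; the open triangle stands at the level of 3 UMIs where there was none. Pi16, Slco1a4, Hmcn1 and Clec1a are highest with Dpp4 alone (Pi16 787 CPM in TMC1), and Prlr with Penk alone (65.6 CPM in TMC1). Crp is highest with both genes in TMC1 (196 CPM, against 87.8 with Penk alone) and with Penk alone in TMC2 (80.3 CPM). These Crp levels rest on few cells, 11 of 59, 23 of 297 and 95 of 1086. Prlr, Slco1a4, Hmcn1, Clec1a and Crp were chosen by co-detection in these same cells.

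The other 3 genes had fewer partners away from 1. For Pi16, 0.0807% of genes reached 1.25 and 0.242% lay at or under 0.8, with Hmcn1 (1.39), Slco1a4 (1.31) and Mup5 (1.31) at the top and Prlr (0.655), Slc10a6 (0.658) and Dcc (0.682) at the bottom. Slc10a6 and Dcc were highest in TMC4 (19.5 and 67.8 CPM), where the Pi16 share is read as background. For Smpd3 the shares were 0.194% and 0.621%, with Arhgap45 (1.65), Cdh6 (1.54) and Nkain4 (1.44) at the top and Map4k1 (0.483), Tinagl1 (0.586) and Arhgef16 (0.596) at the bottom. The value of Arhgef16 rests on 9 cells against 15.1 expected, with an interval of 0.273 to 1.13. Map4k1 rests on 10 against 20.7 (0.232 to 0.889) and Tinagl1 on 18 against 30.7 (0.347 to 0.926). Cdh6 rests on 36 against 23.3 (1.08 to 2.14). Map4k1, Arhgef16 and Cdh6 were highest in TMC4 (8.13, 14.6 and 45.3 CPM), where the Smpd3 share is read as background. For Postn they were 0.0242% and 0.121%, with Tnmd, the tendon gene tenomodulin (1.31), Slco1a4 (1.27) and Emilin3 (1.26) at the top and Gfra1, a receptor of the neurotrophic factor GDNF (0.517), Nkain4 (0.640) and Shisa3 (0.673) at the bottom. Nkain4 thus stood high with Smpd3 and low with Postn.

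Genes known from adventitial and capsular fibroblasts lay with Pi16. Of 18 such genes, 15 were at least 2-fold higher in capFb than in pooled TMC1 to TMC4 and 2 at least 2-fold lower, beside 5.58% and 15.7% of all genes, with a median ratio of 8.02 against 0.873 over all 13530 genes. The largest were Wnt2, a secreted signal (98.9-fold, 81.9 against 0.827 CPM), Efhd1 (71.1-fold), Sema3d, a semaphorin guidance factor (52.7-fold), and Dact2, a modulator of Wnt signalling (43.8-fold). The 2 lower genes were Opcml, a cell adhesion protein (13.2-fold), and Col15a1, a basement membrane collagen (9.53-fold). Pcolce2, another gene of this list, stands in the table as PCOLCE2 and was not counted, with 1043 CPM in capFb and 138 in TMC1. Of 15 genes known from medullary and reticular fibroblasts none was higher and 13 were lower, with a median of 0.105. Among them Alk, a receptor kinase, was 95.7-fold lower, the T cell zone chemokines Ccl19 and Ccl21 52.6-fold and 51.2-fold lower, and Il7, the survival factor of lymphocyte precursors, 19.2-fold lower. These lists were drawn up knowing the data and repeat the labels, so they place the 5 genes and no more.

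The enzymes that mature proenkephalin were spread over the labels. Of 9 tested genes of processing and receptors, 3 were higher in capFb and 2 lower, with a median of 1.18, where 5.58% and 15.7% of all genes were. Pcsk6, a proprotein convertase, was 21.3-fold higher in capFb (562 against 26.4 CPM), Ctsl, cathepsin L, 4.20-fold higher. Pcsk5, another convertase, stood at 313 against 104 CPM. Pcsk1, a convertase of secretory granules, had no UMI in capFb and 120 in the TMC labels, at least 10.3-fold lower when capFb is set at 3 UMIs. Cpe, the carboxypeptidase that trims enkephalins, was 10.1-fold lower in capFb and highest in TMC2. Penk had no clear top label, with a UMI in 38.8% of TMC2 and 36.8% of TMC3 cells. The opioid receptor genes Oprd1, Oprm1 and Oprk1 had fewer than 100 UMIs in the fibroblast labels. Of the other opioid precursors, Pnoc (prepronociceptin) was 40.6-fold higher in capFb on 94 against 9 UMIs, the opposite side from Penk, and Pomc showed a ratio of 1.00.

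The other genes of the Smpd3 pathway were mostly level. Of 21 other genes of sphingomyelin and ceramide metabolism, 2 were higher in capFb and 2 lower, beside 5.58% and 15.7% of all genes, with a median of 0.814. Cers6, a ceramide synthase, was 4.85-fold higher and Sgms2, which makes sphingomyelin from ceramide, 4.27-fold higher on 90 and 82 UMIs. Acer2, an alkaline ceramidase, was 10.7-fold lower and Sphk1, sphingosine kinase, 7.54-fold lower. The other sphingomyelinases Smpd1, Smpd2 and Smpd4 had ratios of 1.02, 0.757 and 0.671.

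No relative or partner of Dpp4 was at least 2-fold higher in capFb. Of 13 tested genes of its family and partners 0 were higher and 4 were lower, against 5.58% and 15.7% of all genes, and all 4 were partners or substrates. The highest ratio was 1.48, of Igf2r, a receptor that binds Dpp4. Fap, the nearest relative of Dpp4, had a ratio of 1.28 and stood at 261 CPM in both capFb and TMC2. Cxcl12 and Ccl11, chemokines that Dpp4 can truncate, were 2.30-fold and 8.74-fold lower in capFb, Cxcr4, the receptor of Cxcl12, was 35.0-fold lower on 4 UMIs in capFb, and Cav1 was 2.45-fold lower. Cxcl12 was also in the reticular list.

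In the CAP superfamily of Pi16, 1 of 5 tested genes was higher in capFb and 3 were lower, with a median of 0.192, where 5.58% of all genes were higher and 15.7% lower. Pi15, another peptidase inhibitor of the family, was 5.02-fold higher in capFb. Crispld2, Crispld1 and Glipr1 were 10.4-fold, 10.3-fold and 5.20-fold lower, the last on 5 UMIs in capFb.

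Partners of periostin were found on both sides. Of 18 genes, 9 were at least 2-fold higher in capFb and 4 at least 2-fold lower, against 5.58% and 15.7% of all genes, with a median ratio of 2.04. Ccn3, a matricellular regulator, was 15.9-fold higher and Fn1, fibronectin, 8.95-fold higher. Tgfbi, the nearest relative of Postn, was 12.4-fold lower and highest in TMC2, and Tnc, the matrix protein tenascin C, 9.50-fold lower on 15 UMIs in capFb. The fibrillar collagens Col1a1 and Col3a1, to which periostin binds, had ratios of 4.02 and 1.87.

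The genes most alike in pattern were found by Pearson correlation of log2(CPM + 1) over the 18 labels of at least 50 cells, which share 1 library and its free RNA. For Pi16 they were Smpd3 (r = 0.972), Pcsk6 (0.958) and PCOLCE2, an enhancer of procollagen cleavage (0.956). For Smpd3 they were Pi16, Prdm8 (0.969) and Pcsk6 (0.965), so these 2 genes named each other. For Dpp4 they were Prdm8 (0.932), Xpnpep2, another membrane aminopeptidase (0.932), and Adgrd1 (0.920). Xpnpep2 was at 71.9 CPM in capFb, 39.7 in TMC1 and 9.89 in TMC2.

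For Penk the most alike were Prr5 (0.903), Uap1l1 (0.899) and Angptl1 (0.882), but over the 24 labels of at least 20 cells none of these was among its first 10 genes. There Prr5 ranked 11 (0.831), Angptl1 18 (0.821) and Uap1l1 358 (0.655). Angptl1, a secreted angiopoietin-like protein, was at 376 CPM in TMC2, 283 in TMC1, 134 in TMC3, 93.8 in capFb and 30.7 in TMC4. For Postn they were Col3a1 (0.951), Mmp23 (0.945) and Ssc5d (0.937). Among the 5 genes the lowest correlations were those of Penk with Pi16 (0.138) and with Smpd3 (0.154).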

How the data were processed

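The authors deposited raw counts of UMIs, produced by Cell Ranger 8.0.0 according to both the matrix header and the submitters' processing notes. Those notes also name Seurat 5.3.0 and the build mRatBN7.2, and the gene annotation is not given in the sources used here. The percent of mitochondrial UMIs per cell, deposited by the authors, was not used in any value. Labels are the authors' projected label or, where none was given, their initial cluster, which holds for all 5 fibroblast labels. UMIs were summed per label of at least 20 cells. Ratios of capFb to pooled TMC labels used genes with at least 100 UMIs, with sums under 3 UMIs set to 3. No doublet caller was run. Cells above the 99th percentile of UMIs of their label, and cells with UMIs of other lineages, were left out as alternatives. Named genes are the 5 members, up to 4 genes of each list by size of ratio among those at least 2-fold apart, the 3 most alike, and the 3 highest and 3 lowest co-detected, without genes known by an identifier alone. Further list genes (such as Fap, Smpd1, Pcsk5, Opcml and Col1a1) are named for their role or to complete a count, after their values were seen. The members and lists were chosen with earlier results of these data known. Methods were tested on simulated data. Independent draws of Dpp4 and Penk over 8216 cells gave a ratio of 0.986, and a planted 0.740 came back as 0.718. Of 200 genes raised 4-fold among 13530, 100% were called at the 2-fold limit. All draws were Poisson counts at fixed means, without free RNA, barcodes of more than 1 cell or further variation between cells. They check the calculation and not these features of the data. Software was Python 3.11.15 with pandas 2.3.3, NumPy 2.4.6 and SciPy 1.17.1, with figures from matplotlib 3.10.9 and a random seed of 7.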

Additional observations from a re-analysis of the deposited data

Results flagged for a closer look

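The 2934 stromal barcodes that carry no annotation, which no comparison used, held UMIs of all 5 genes. Their levels were 232 CPM of Pi16, 152 of Postn, 59.6 of Smpd3, 54.6 of Dpp4 and 15.9 of Penk, each above the 0.346 CPM that 3 UMIs would give. All 5 lie below the level over annotated cells, which was 730 CPM for Pi16, 475 for Postn, 141 for Smpd3, 152 for Dpp4 and 44.5 for Penk. The median depth of these barcodes was 1219.5 UMIs, and 308 of them had a Pi16 UMI.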

How the results depend on the processing

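No paired analysis was possible because there was 1 library in each group. Of 44 ratios of levels under another setting 27 stayed inside the interval of the value reported. So did 87 of 110 co-detection ratios over the 5 labels. Both counts hold the initial cluster, which gives the same fibroblast labels and so could not move. No ratio whose interval excluded 1 crossed 1. Ratios with an interval that includes 1 were not counted as changing direction. Of these, Smpd3 with Postn, reported at 0.973, passed above 1 without label strata. Of 75 shares of cells under another setting 2 stayed inside their interval, and of 15 gaps between shares 4 did. Ratios of capFb to TMC1 outside it were 12.7 (Pi16), 8.30 (Smpd3) and 2.16 (Postn) by the mean of the cells' CPM. In cells without UMIs of other lineages, 35.4% of fibroblasts, they were 12.5 (Pi16), 4.81 (Dpp4), 7.93 (Smpd3) and 1.91 (Postn), with 1.78 for Penk in TMC3 over TMC2. Thinned to 1000 UMIs they were 13.7 (Pi16) and 8.94 (Smpd3), and to 4000 UMIs 12.4 (Pi16), 5.09 (Dpp4), 7.99 (Smpd3) and 2.19 (Postn). With TMC cells of 10 or more Pi16 UMIs left out, a choice made after seeing the data, they were 7.72 (Dpp4), 8.27 (Smpd3) and 2.17 (Postn).

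The gap in share of cells between the top 2 fibroblast labels was 40.3 percentage points for Pi16, 61.1 for Dpp4, 62.0 for Smpd3 and 9.34 for Postn. At 1000 UMIs it was 68.5 (Pi16), 42.4 (Dpp4), 46.4 (Smpd3) and 25.3 (Postn). At 4000 UMIs it was 52.2 (Pi16), 65.1 (Smpd3) and 13.8 (Postn), and at 2 or more UMIs 57.4 (Pi16), 65.6 (Dpp4), 71.3 (Smpd3) and 19.0 (Postn).

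Co-detection without label strata, which counts differences between labels as meeting, was 1.77 (Pi16 with Dpp4), 1.84 (Pi16 with Smpd3), 0.742 (Pi16 with Penk), 1.10 (Pi16 with Postn), 2.08 (Dpp4 with Smpd3), 0.575 (Dpp4 with Penk), 1.19 (Dpp4 with Postn), 0.651 (Smpd3 with Penk), 1.14 (Smpd3 with Postn) and 0.861 (Penk with Postn). In TMC1 to TMC4 alone, chosen after seeing the data, it was 1.43 (Pi16 with Dpp4), 1.25 (Pi16 with Smpd3), 1.29 (Dpp4 with Smpd3), 0.579 (Dpp4 with Penk), 1.20 (Dpp4 with Postn) and 0.912 (Smpd3 with Postn). At 1000 UMIs it was 0.764 (Pi16 with Penk), 0.499 (Dpp4 with Penk), 0.821 (Smpd3 with Penk) and 0.851 (Penk with Postn), at 4000 UMIs 0.822 (Pi16 with Penk), and at 2 or more UMIs 0.627 (Pi16 with Penk) and 0.621 (Dpp4 with Penk). Within TMC1 and TMC2, Dpp4 with Penk stayed under 1 in all 16 values, from 0.138 on 1 cell with both to 0.584. At a fold of 3, 437 genes were higher and 1393 lower in capFb. The initial cluster gives the same fibroblast labels. Without barcodes shared with the thymocyte library, an added choice, the 10 ratios stayed inside their intervals. Low counts limit Penk, Smpd3 in TMC2 and all pairs in TMC4. The causes of these shifts were not tested.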
